A study of Caenorhabditis elegans with 12 samples.

Results

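Oligo-dT primed RNA-seq libraries of XX adult Caenorhabditis elegans females homozygous for fog-2(q71), strain JK574, were set against libraries of wild-type N2 XX adult hermaphrodites. Both genotypes were whole animals grown at 20 °C on NGM plates with OP50 bacteria, and the strain label of 1 N2 library reads N3. Each genotype had 3 libraries, so 6 of the 12 libraries of the series belong here, and the stated purpose was to look for an effect of fog-2 on polyadenylation by comparing oligo-dT with random-hexamer priming. The comparison was made up of the 16396 genes, of 39665 in the table, that the authors tested. The deposited table holds 1 pooled level per genotype in FPKM, fragments scaled to the length of the gene model and to the mapped fragments of the library. Values per library, their spread and the sequencing depth were not analysed here, so every level below is the authors' pooled value with no replicate error. The sources used here do not say whether the females had been mated.

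A wild-type hermaphrodite is a somatic female whose germline makes sperm late in larval life and oocytes afterwards, and it fertilizes those oocytes with its own sperm. The F-box protein FOG-2 binds GLD-1, an RNA-binding protein, and together they hold down translation of tra-2 so that the XX germline can make sperm. XX animals without FOG-2 make oocytes and no sperm and must mate to reproduce. Adult N2 hermaphrodites usually carry fertilized embryos in the uterus, and unmated females do not.

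A gene is called here where q in the authors' deposited table was at or under 0.05 and the authors marked its test as OK. The log2 fold is fog-2 over N2, so a negative value means a lower level in fog-2. By this rule 235 genes were called, 1.43% of those tested. Of these, 180 were lower in fog-2 females (1.1% of tested genes) and 55 were higher (0.335%). The genes called lower had a median of 1.46 FPKM in fog-2 and 6.22 FPKM in N2. For all tested genes these medians were 3.93 FPKM in fog-2 and 4.23 FPKM in N2. The genes called higher were more abundant, with a median of 68.6 FPKM in fog-2 and 28.9 FPKM in N2. Folds of the 174 lower genes with a level in both genotypes had a median of -1.65 and ranged from -4.17 to -0.52. Those of the 52 such higher genes had a median of 0.83 and ranged from 0.50 to 3.91. Among these, at least 2-fold differences were found in 130 lower and 16 higher genes, and at least 4-fold differences in 55 and 2. A further 6 lower genes were listed at 0 in fog-2 and 3 higher genes at 0 in N2. With the unadjusted p of the authors' deposited table under 0.05, 1025 (6.25%) lay lower and 360 (2.2%) higher.

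**Figure D1:**
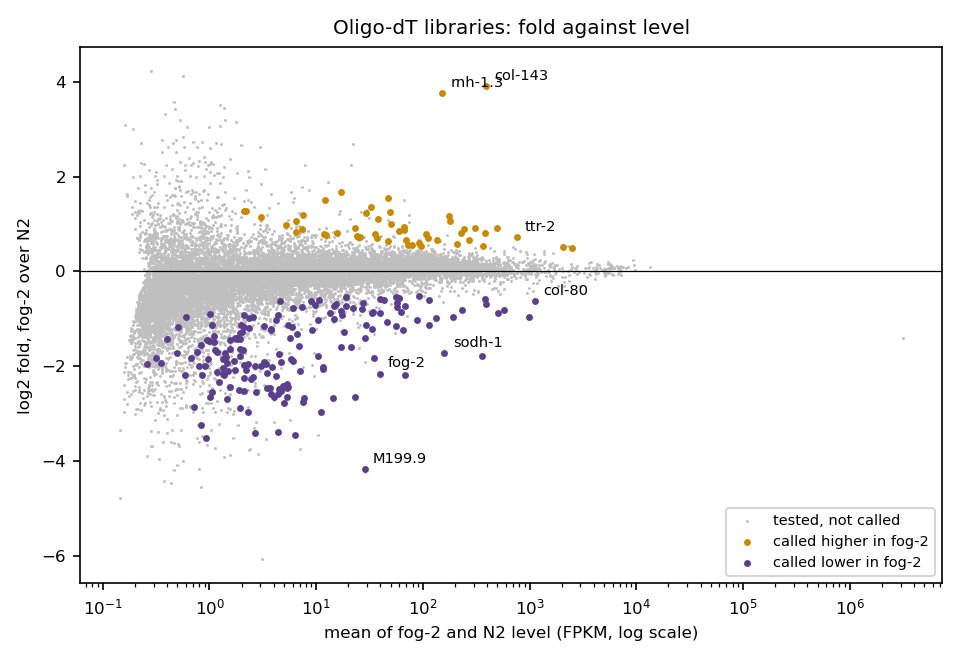
Log2 fold of fog-2 over N2 (vertical) against the mean of both pooled FPKM values (horizontal, log scale) for each tested gene with a level above 0 in both genotypes. Points are genes, grey where not called. Called higher genes lie mostly at higher levels than called lower genes, and the single point at the far right is the piRNA gene 21ur-8765.

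Folds spread more widely at low levels. Over all tested genes the median log2 fold was -0.03, with 5th and 95th percentiles of -1.39 and 0.55. Genes of at most 0.5 FPKM in their higher genotype had a median of -0.52, and 25.9% of them were at least 2-fold lower, against 4.23% at least 2-fold higher. Between 5 and 20 FPKM the median was -0.00 and those shares were 3.9% and 1.11%. Between 100 and 500 FPKM the median was 0.09 and both shares were 0.239%. Genes at 0 in 1 genotype count in these medians and shares. Overlapping gene models carry 1 locus between them, as 31.8% of tested genes and 35 of the called genes did.

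**Figure D2:**
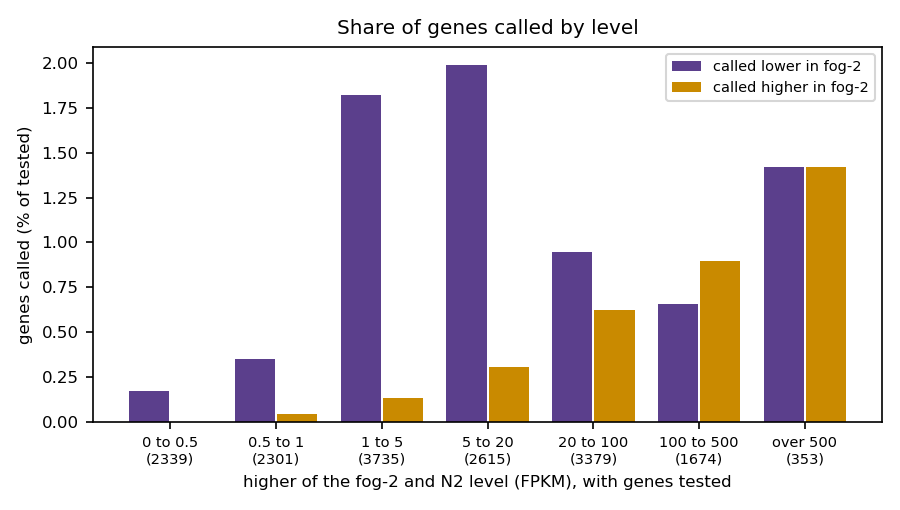
Share of tested genes called lower and called higher in fog-2 (vertical, percent) by the higher of the fog-2 and N2 level (horizontal, FPKM, number of tested genes in brackets). Lower calls make up the largest share between 1 and 20 FPKM, where 68 (1 to 5 FPKM) and 52 (5 to 20 FPKM) of them fall.

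The targeted gene fog-2 was at 14.4 FPKM in fog-2 females and 64.2 FPKM in N2, a log2 fold of -2.16. It lies on chromosome V at 20199263 to 20200474, in the table's own coordinates, for which the sources used here name no genome build. Of 40 sex-determination genes tested, the targeted fog-2 itself was the 1 called (2.5%, against 1.1% of all tested genes called lower). The F-box paralog ftr-1 was at 29.5 FPKM in fog-2 and 24.8 FPKM in N2. The partner gld-1 was at 155 FPKM in fog-2 and 181 FPKM in N2. The fem genes, which promote male fate downstream of tra-2, were not called, with fem-3 at 88.7 FPKM in fog-2 and 90.8 FPKM in N2. The fog-1 gene, a sperm-fate regulator of the germline, was at 27.3 FPKM in fog-2 and 24.98 FPKM in N2. The other sperm-fate regulator fog-3 was at 0.248 FPKM in fog-2 and 0.933 FPKM in N2, and it was not called.

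Sperm proteins gave the most uniform group of lower genes. Major sperm proteins are the cytoskeletal proteins of the crawling nematode sperm and are also released as signals to the oocyte. All 29 tested members had a fold below 0, and 14 were called lower (48.3%, against 1.1% of all tested genes), with a list median of -2.42 beside -0.03 for all tested genes. Their pooled levels added up to 35.6 FPKM in fog-2 and 153 FPKM in N2, and no member was listed at 0 in fog-2. Over all 29 members, levels ran from 0.0821 to 4.20 FPKM in fog-2 and from 0.606 to 13.01 FPKM in N2, and these ranges overlap. The list median was -1.43 with 1 FPKM added to each level, and 7 members were called at a q of 0.01. The highest called copy was msp-36, at 1.91 FPKM in fog-2 and 13.01 FPKM in N2. Next came msp-76, at 2.51 FPKM in fog-2 and 9.09 FPKM in N2. The 15 copies that were not called had a median fold of -1.76, and all of these too were below 0. Copies of this family are nearly identical in sequence, so how reads were shared among them makes the value of any single copy uncertain. In bulk RNA, fewer cells of a type and less RNA per cell cannot be told apart.

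Other sperm genes moved less evenly. Of 23 tested members of the small sperm-specific families, 5 were called lower (21.7%, against 1.1% of all tested genes). Of these 23, 22 were below 0 and the list median was -1.79. That median was -1.099 with 1 FPKM added to each level, and 3 members were called at a q of 0.01. The most abundant called member was msd-4, of a family with a major sperm protein domain, at 1.47 FPKM in fog-2 and 9.30 FPKM in N2. The sperm-specific genes sss-1, at 0.934 FPKM in fog-2 and 3.63 FPKM in N2, and ssq-1, at 0.983 FPKM in fog-2 and 3.11 FPKM in N2, were called too. The related ssq-2 was at 0.149 FPKM in fog-2 and 1.71 FPKM in N2, and nspd-6 was listed at 0 in fog-2 and 2.38 FPKM in N2. None of 22 tested spe, fer and gsp genes, which act in sperm development and fertilization, was called, where 1.43% of all tested genes were. At an unadjusted p under 0.05 by the authors' deposited table, 4 of these 22 lay lower and 0 higher. Of the 22, 15 stood under 1 FPKM in both genotypes. The sperm phosphatase gene gsp-4 was at 0.388 FPKM in fog-2 and 1.26 FPKM in N2.

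The gipc and msrp families were chosen after their values were seen. Both tested gipc genes were called lower, gipc-2 at 0.464 FPKM in fog-2 and 3.41 FPKM in N2, and gipc-1 at 0.490 FPKM in fog-2 and 2.19 FPKM in N2. All 7 tested msrp genes were below 0. One of these, msrp-2, was called, at 0.762 FPKM in fog-2 and 7.95 FPKM in N2. The 9 tested genes of the male somatic list, markers of another sex, had no call, 0 genes at an unadjusted p under 0.05 by the authors' deposited table, and 6 members under 1 FPKM.

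Of 44 tested members of the oocyte and eggshell list 0 were called, where 1.43% of all tested genes were, with a median level of 187 FPKM in fog-2 and 192 FPKM in N2 and a median fold of -0.05. The yolk receptor gene rme-2 was at 555 FPKM in fog-2 and 599 FPKM in N2. The chitin synthase gene chs-1, which builds the eggshell, was at 191 FPKM in fog-2 and 210 FPKM in N2. The maturation gene oma-1 was at 325 FPKM in fog-2 and 341 FPKM in N2. None of 31 meiotic axis and synaptonemal complex genes was called, and 27 of them were above 0. At an unadjusted p under 0.05 by the authors' deposited table, 2 oocyte genes lay lower and 1 higher, and 0 meiotic genes lay on either side.

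Early and late embryonic genes are given apart. None of 40 tested early embryonic genes was called, where 1.43% of all tested genes were. The median fold of these 40 was 0.20, with 30 above 0. At an unadjusted p under 0.05 by the authors' deposited table, 0 of the 40 lay lower and 1 higher. The early zygotic gene pes-10 was at 13.1 FPKM in fog-2 and 9.88 FPKM in N2. Of 10 genes of the late embryonic extracellular matrix, 5 were called lower (50%, against 1.1% of all tested genes), and the median was -0.78. The cuticlin gene cut-3 was at 2.07 FPKM in fog-2 and 13.2 FPKM in N2. The collagen gene sqt-3 was at 10.6 FPKM in fog-2 and 25.9 FPKM in N2, and the collagen gene dpy-17 was at 20.3 FPKM in fog-2 and 47.2 FPKM in N2. The hatching protease gene hch-1 was at 1.74 FPKM in fog-2 and 3.37 FPKM in N2, and the lipocalin-related gene lpr-3 was at 1.999 FPKM in fog-2 and 4.44 FPKM in N2. The uncalled members were noah-1, noah-2, fbn-1, sym-1 and let-653. The part of embryos held in the animals in these differences was not tested.

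**Figure D3:**
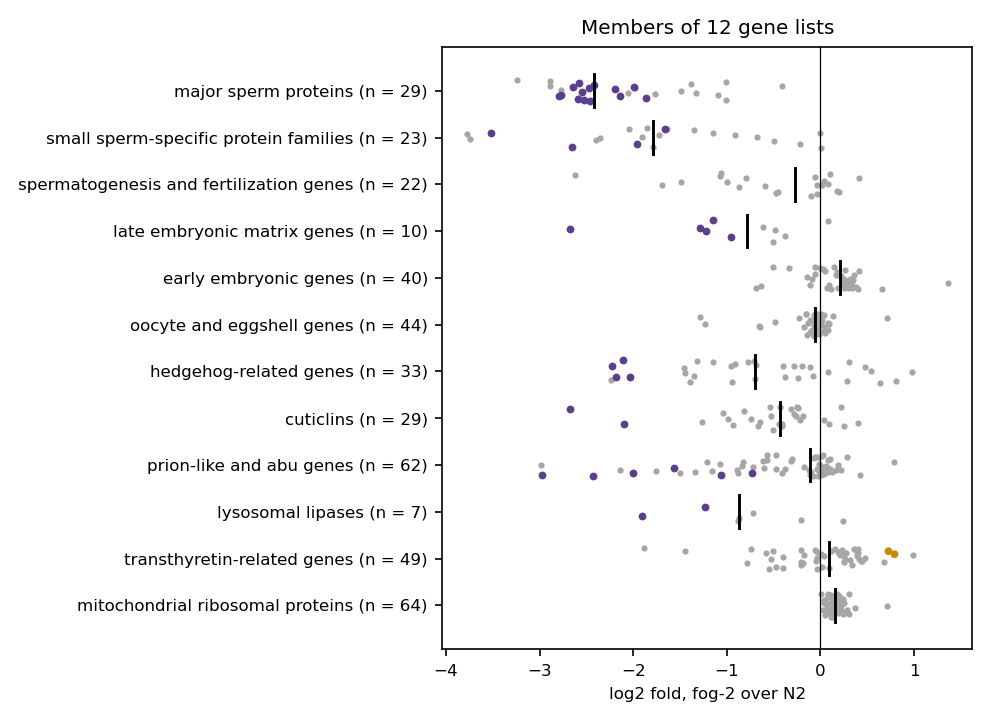
Log2 fold of fog-2 over N2 (horizontal) for the tested members of 12 gene lists, with purple points called lower, orange points called higher, grey points not called and a black bar at the list median. Members at 0 in either genotype have no point; all major sperm protein points lie below 0 and all mitochondrial ribosomal protein points above it.

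Cuticle and apical matrix genes were called mostly lower. Of 107 tested cuticle collagens 8 were called lower (7.48%, against 1.1% of all tested genes) and 1 higher (0.935%, against 0.335%). The list median was -0.30, and sqt-3 and dpy-17, given above, are among the 8. The collagen gene col-165 was at 1.06 FPKM in fog-2 and 11.7 FPKM in N2. The abundant col-80 was at 887 FPKM in fog-2 and 1366 FPKM in N2. Its locus is shared with another gene model, so its call is lost without shared loci. Against these, col-143 was at 738 FPKM in fog-2 and 49.1 FPKM in N2, the largest fold of all higher calls with a level in both genotypes. Its neighbour col-142, with a gap of 3441 bases between the gene models on chromosome V, was called the other way, at 71.1 FPKM in fog-2 and 156 FPKM in N2.

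Hedgehog-related genes encode secreted proteins of the skin and other epithelia. Of 33 tested members 4 were called lower (12.1%, against 1.1% of all tested genes), with a median of -0.69. Pooled levels of the 33 members added up to more in fog-2, 260 FPKM, than in N2, 208 FPKM. The median was -0.20 over members of at least 1 FPKM and -0.21 with 1 FPKM added to each level, and 2 members were called at a q of 0.01. The most abundant called member was wrt-1, at 0.900 FPKM in fog-2 and 4.22 FPKM in N2, and grl-5, grl-7 and grl-16 were the others. Of 29 cuticlins 2 were called lower (6.9%), cut-2 at 2.67 FPKM in fog-2 and 11.4 FPKM in N2, and cut-3 above. Of 15 moulting genes mlt-9 and mlt-11 were called lower (13.3%). Of 62 prion-like and abu genes 6 were called lower (9.68%), led by pqn-94 at 30.1 FPKM in fog-2 and 62.9 FPKM in N2. The patched-related gene ptr-4 was lower, at 0.662 FPKM in fog-2 and 1.46 FPKM in N2, and ptr-22 was higher, at 2.999 FPKM in fog-2 and 1.24 FPKM in N2. Of 34 astacin metalloproteases hch-1 was lower and nas-20 was higher (2.94% each, against 0.335% of all tested genes called higher). The level of nas-20 was 32.0 FPKM in fog-2 and 19.3 FPKM in N2. At a q of 0.01, 0 of the patched-related, astacin and moulting genes were called.

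Intestinal and immune lists held calls in both directions. Of 133 C-type lectins, 8 were called lower (6.02%, against 1.1% of all tested genes) and 1 higher (0.752%, against 0.335%). The lower one with the highest N2 level, clec-190, was at 24.7 FPKM in fog-2 and 112 FPKM in N2. Without shared loci the clec-190 call is lost. The higher one, clec-47, was at 134.9 FPKM in fog-2 and 77.9 FPKM in N2. Of 7 lysosomal lipases tested, 2 were called lower (28.6%). These were lipl-3, at 1.99 FPKM in fog-2 and 7.44 FPKM in N2, and lipl-2, at 5.46 FPKM in fog-2 and 12.8 FPKM in N2. The gut protease gene cpr-1 was at 355 FPKM in fog-2 and 656 FPKM in N2. The saposin-like gene spp-2 was at 170 FPKM in fog-2 and 299 FPKM in N2, spp-18 at 89.1 FPKM in fog-2 and 175 FPKM in N2, and the lysozyme gene lys-10 at 1.72 FPKM in fog-2 and 8.97 FPKM in N2. The gene dod-23, named as lying downstream of daf-16, was at 679 FPKM in fog-2 and 1315 FPKM in N2, and dod-19 was higher, at 94.9 FPKM in fog-2 and 64.3 FPKM in N2.

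Fat and small-molecule metabolism gave a few more. Of 29 tested genes of the desaturase and elongase list 3 were called lower (10.3%, against 1.1% of all tested genes). The elongases elo-2, at 301 FPKM in fog-2 and 484 FPKM in N2, and elo-5, at 304 FPKM in fog-2 and 453 FPKM in N2, were lower, as was pod-2, an acetyl-CoA carboxylase, at 34.7 FPKM in fog-2 and 52.4 FPKM in N2. The genes elo-5 and pod-2 overlap other gene models, and without shared loci, or at a q of 0.01, 1 call of the 3 was left. The alcohol dehydrogenase gene sodh-1 was at 74.0 FPKM in fog-2 and 244 FPKM in N2, the 1 call of 48 dehydrogenases (2.08%). Of 57 acyl-CoA and beta-oxidation genes tested, 2 were called higher (3.51%, against 0.335%) and 1 lower (1.75%, against 1.1%). At a q of 0.01, 1 of these 3 calls was left. The acyl-CoA dehydrogenases acdh-2, at 85.9 FPKM in fog-2 and 54.3 FPKM in N2, and acdh-9, at 87.1 FPKM in fog-2 and 59.3 FPKM in N2, were higher, while the hydratase gene ech-9 was lower, at 1.37 FPKM in fog-2 and 7.66 FPKM in N2. Water channels aqp-1, at 38.8 FPKM in fog-2 and 91.3 FPKM in N2, and aqp-2, at 43.0 FPKM in fog-2 and 71.9 FPKM in N2, were lower. They were 2 of 12 tested aquaporins (16.7%), a list added after values were seen.

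Of 32 tested muscle filament genes 2 were called lower (6.25%), against 1.1% of all tested genes, with 1 left without shared loci and 0 at a q of 0.01. These were the pharyngeal myosin heavy chain genes, myo-1 at 7.06 FPKM in fog-2 and 10.9 FPKM in N2, and myo-2 at 3.60 FPKM in fog-2 and 5.53 FPKM in N2. The body wall genes myo-3, at 11.6 FPKM in fog-2 and 11.6 FPKM in N2, and unc-54, at 47.9 FPKM in fog-2 and 57.1 FPKM in N2, were not called. The split into pharyngeal and body wall myosin genes was made after their values were seen. No gene of 28 flp and 71 nlp neuropeptides was called, where 1.43% of all tested genes were. Below 0 were 25 flp genes, with a median fold of -0.25, and 53 nlp genes, with a median of -0.23. Their median N2 levels were 14.6 and 8.71 FPKM, and all genes of 5 to 20 FPKM had a median fold of -0.00. With p under 0.05 before adjustment in the authors' deposited table, the flp genes had 3 lower and 1 higher. By the same p, the nlp genes had 3 lower and 0 higher. Of 705 chemoreceptor genes 1 was called lower, srw-85 (0.142%, against 1.1% of all tested genes), and 653 stood under 1 FPKM. The median fold of the 705, -0.46, lies near the -0.52 of all genes of at most 0.5 FPKM. The transcription factor genes unc-42 and egl-46, both known from neuron fate, were lower. The level of unc-42 was 0.309 FPKM in fog-2 and 1.81 FPKM in N2, and that of egl-46 was 0.839 FPKM in fog-2 and 3.54 FPKM in N2. Both overlap other gene models, so neither call is left without shared loci.

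The housekeeping lists below, and the germline lists of Argonautes and P granule genes, had no calls, where 1.43% of all tested genes were called. Lists this short would hold few or no calls at that share. None of 65 cytosolic ribosomal protein genes was called, and their median fold was 0.04. All 64 tested mitochondrial ribosomal protein genes were above 0, with a median of 0.15 against 0.09 for all genes of 100 to 500 FPKM, and none was called. None of 28 proteasome subunits, 20 Argonautes or 18 P granule genes was called. At an unadjusted p under 0.05 by the authors' deposited table, 0 genes of both ribosomal lists and the proteasome list lay on either side, the Argonautes had 1 lower and 1 higher, and the P granule genes had 1 lower.

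Higher genes were fewer and include several of high level. The ribonuclease H gene rnh-1.3 was at 281 FPKM in fog-2 and 20.7 FPKM in N2, a log2 fold of 3.76. The most abundant call, F23A7.4, was at 2957 FPKM in fog-2 and 2091 FPKM in N2. Among uterine lumen-expressed genes, a list added after values were seen, ule-4 was called at 2429 FPKM in fog-2 and 1691 FPKM in N2, and all 5 tested members were above 0. Of 49 transthyretin-related genes tested, 2 were called higher (4.08%, against 0.335% of all tested genes). These were ttr-2, at 943 FPKM in fog-2 and 570 FPKM in N2, and ttr-14, at 14.9 FPKM in fog-2 and 8.63 FPKM in N2. The methionine sulfoxide reductase gene msra-1 was at 641 FPKM in fog-2 and 341 FPKM in N2. The cystatin gene cpi-1, a cysteine protease inhibitor of another list added later, was at 317 FPKM in fog-2 and 171 FPKM in N2. The chaperone gene hsp-70 was at 10.4 FPKM in fog-2 and 4.55 FPKM in N2, the 1 call of 52 chaperones (1.92%). It overlaps another gene model, and without shared loci 0 chaperones were called. The gene nhj-1, which acts in DNA end joining, was at 70.2 FPKM in fog-2 and 24.2 FPKM in N2. The F-box gene fbxb-7 was at 17.9 FPKM in fog-2 and 6.25 FPKM in N2.

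Several called genes are known by sequence name alone. Among the lower ones F53A9.8 was at 161 FPKM in fog-2 and 554 FPKM in N2, and Y51F10.7 was at 131 FPKM in fog-2 and 254 FPKM in N2. Y51F10.7 shares its locus with another gene model, and its call is lost without shared loci. F41F3.3 was at 6.33 FPKM in fog-2 and 40.1 FPKM in N2, C02E7.6 at 3.87 FPKM in fog-2 and 24.7 FPKM in N2, and F59C6.18 at 2.50 FPKM in fog-2 and 19.5 FPKM in N2. Their roles are not given here. Among the higher ones H29C22.1 was at 241 FPKM in fog-2 and 107 FPKM in N2, and C08A9.10 was at 242 FPKM in fog-2 and 116 FPKM in N2. K10C2.7 was at 26.3 FPKM in fog-2 and 8.24 FPKM in N2. At the low end, 6 genes called lower were listed at 0 in fog-2, the highest being nspd-6 at 2.38 FPKM in N2 and nspb-12 at 1.42 FPKM in N2. Listed at 0 in N2 were 3 genes called higher, led by F35B12.11 at 3.80 FPKM in fog-2; no fold is given for either kind.

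**Figure D4:**
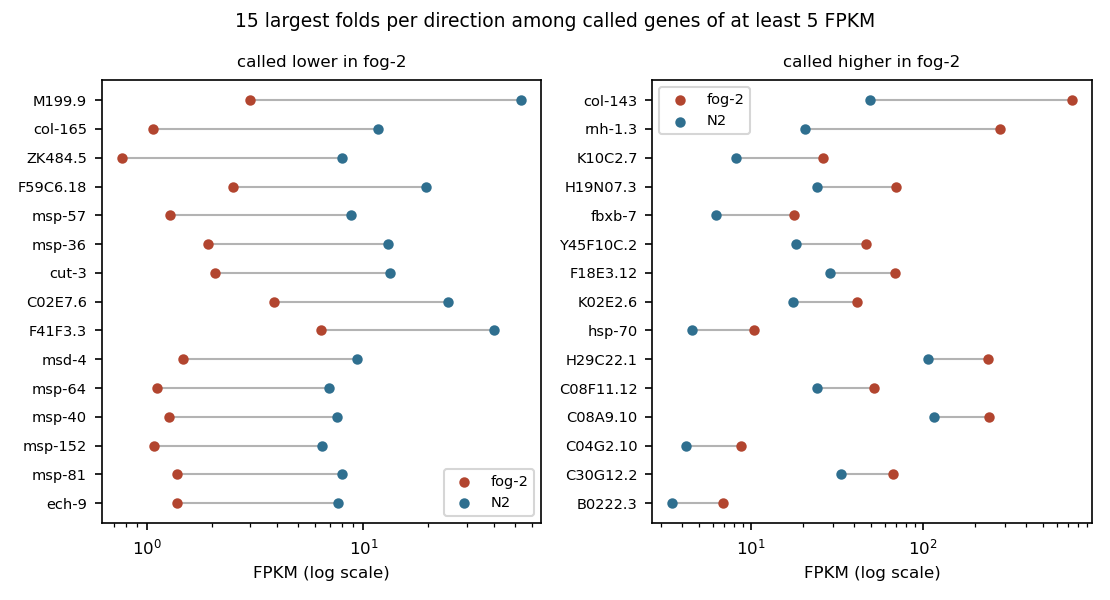
Pooled FPKM (horizontal, log scale) in fog-2 and N2 of the 15 called genes with the largest fold in each direction among those of at least 5 FPKM in 1 genotype. The left panel runs from M199.9 to ech-9 and the right from col-143 to B0222.3, where col-143 and rnh-1.3 stand apart from the other higher genes.

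The largest lower fold was that of M199.9, at 2.99 FPKM in fog-2 and 53.8 FPKM in N2, a log2 fold of -4.17. It lies between clec-190 and col-135, both also called lower, on chromosome IV from 15124948 to 15131754. For called genes whose locus spans at most 100 kb, another gene called in the same direction lay within 10 kb in 20 of 179 lower genes (11.2%) and 10 of 55 higher genes (18.2%). For the other tested genes under the same span limit, 14025 and 14149, those shares were 5.75% and 1.6%. These are descriptions with no test, and the span limit was chosen after a first version, restricted to genes that shared no locus, was seen. That version gave 10.5% and 19.1% for called genes, against 5.2% and 1.53%.

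Runs of 3 called neighbours were found 4 times. The genes clec-190, lpr-3 and ugt-22 share a locus with other gene models. Without shared loci the runs that hold them fall below 3 called genes. On chromosome X lpr-3, lpr-5 and lpr-4, lipocalin-related matrix genes of a list added after values were seen, were lower. The level of lpr-3 was 1.999 FPKM in fog-2 and 4.44 FPKM in N2. Within this run lpr-6, at 1.33 FPKM in fog-2 and 3.27 FPKM in N2, was not called. On chromosome IV the glucuronosyltransferase gene ugt-22, ule-4 and C08F11.12 were higher, C08F11.12 at 52.03 FPKM in fog-2 and 24.2 FPKM in N2. On chromosome V F18E3.11, F18E3.12 and F18E3.13 were higher, F18E3.12 at 68.6 FPKM in fog-2 and 28.9 FPKM in N2. Not every neighbour was called: stha-3 (Y62H9A.5), beside the higher gene Y62H9A.4 at 406 FPKM in fog-2 and 214 FPKM in N2, was at 1699 FPKM in fog-2 and 1599 FPKM in N2.

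**Figure D5:**
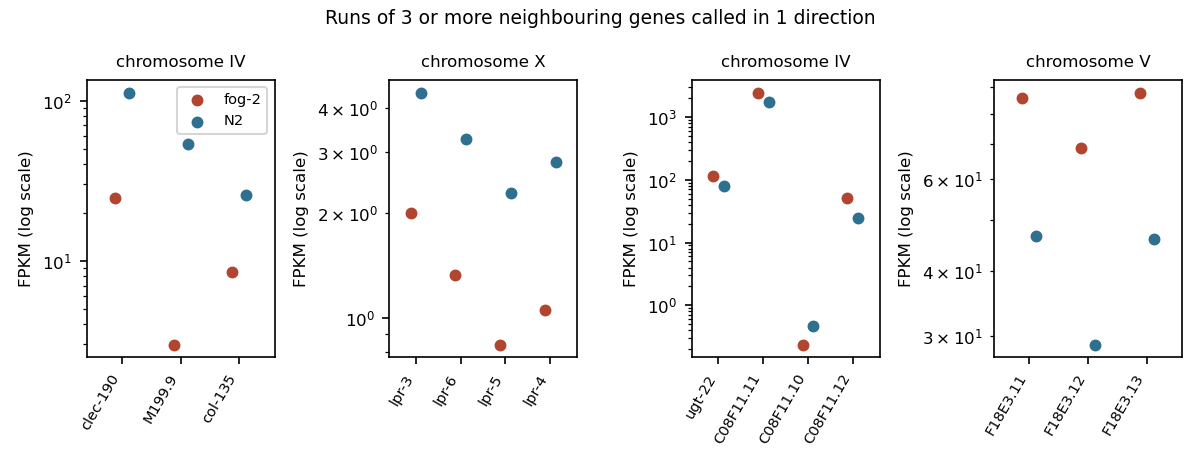
Pooled FPKM (vertical, log scale) of the tested genes in the 4 runs with 3 called neighbours, in order along the chromosome, where C08F11.11 is ule-4. In the panels with clec-190 and lpr-3 fog-2 points lie below N2 points, and in those with ugt-22 and F18E3.11 above them except for C08F11.10, which was not called.

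Hexamer-primed libraries of the same RNA are set beside these values without a test, since both primings share their animals. In the labels, 1 hexamer library carries a description as oligo-dT primed, and its title was followed. With hexamers 81 of 9855 tested genes were called (0.822%). Of the 235 genes called with oligo-dT, 144 were tested with hexamers and 91 were not. With hexamers col-143 was at 545 FPKM in fog-2 and 24.6 FPKM in N2, and rnh-1.3 was at 120 FPKM in fog-2 and 12.1 FPKM in N2, and both were called there. M199.9 was at 3.05 FPKM in fog-2 and 31.1 FPKM in N2 with hexamers and was not called, with q = 0.796 in the authors' deposited table. Likewise msp-36, at 1.77 FPKM in fog-2 and 5.32 FPKM in N2 with hexamers, had q = 0.661 in the authors' deposited table. The copy msp-57 was at 2.46 FPKM in fog-2 and 1.93 FPKM in N2 with hexamers, in a gene the authors did not test there.

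At the edge of the call, 6 genes had q = 0.0488 in the authors' deposited table and were inside it, among them myo-2, clec-65 and ugt-9. With q = 0.0504 in the authors' deposited table, 9 more were outside, fil-1 among them, with folds between -2.16 and 0.79.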

How the data were processed

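RNA of whole worms was taken up in Trizol and made into libraries with Illumina's TotalScript kit, per the labels' protocols. The design text says mRNA and the molecule label total RNA. TopHat, Cufflinks 2.1.1 and Cuffdiff were used, per the submitters' processing notes. For the genome build and annotation the labels and headers give no name, so coordinates are as deposited with starts raised by 1. The authors deposited 1 FPKM value per genotype, pooled over 3 libraries, with a p-value and a q-value per gene, per the file headers. No per-sample value column was left unused (0). Log2 folds were recomputed from FPKM with no pseudocount (python 3.11.15, pandas 2.3.3). Of the genes, 20516 were not tested by the authors, 2306 had too many fragments and 447 too few, and these were left out. Because values per library and depth are unknown, no further test, interval or SD was possible, and calls are the authors' own. The fold and adjustment functions were checked on simulated data for exactness; a further requirement on the share of altered genes recovered was missed at the larger of the noise levels tried and was dropped, and no result rests on it. RefSeq gene names matched 16003 tested genes.

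The 53 gene lists, like the comparison itself, were chosen with earlier results of these data known, and 18 more lists were added after values were seen. Named genes were fog-2, called list members, the 15 largest folds per direction of at least 5 FPKM, the 10 most abundant calls per direction and genes at the threshold; genes named outside this rule were chosen after their values were seen. No sequence is shown.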

Additional observations from a re-analysis of the deposited data

How the results depend on the processing

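Counts of called genes moved with the threshold. A stricter q of 0.01 in the authors' table, as deposited, left 106 genes lower and 23 higher. An unadjusted p under 0.05 there gave 1025 lower and 360 higher, and requiring at least 2-fold, with genes at 0 in N2 counted, left 19 higher. Lower calls stayed between 136 and 180, and higher calls between 47 and 55, under the other alternatives (at least 2-fold for the lower, recomputed adjustment, at least 1 FPKM, no shared loci, centred folds and, added after seeing the data, no loci over 100 kb); without major sperm protein genes, also added, 166 were lower. The median fold of all tested genes was -0.03, and 0.02 with at least 1 FPKM required. Of 53 list medians, 3 changed sign with at least 1 FPKM required and 4 without shared loci. By over 0.1, 5 moved with 0.1 FPKM added, 14 with 1 FPKM added, 9 with at least 1 FPKM required and 8 without shared loci; with 1 FPKM added the major sperm protein median was -1.43 and that of the small sperm families -1.099. No paired analysis was possible because the table holds 1 pooled value per genotype, and for the same reason no library could be left out. Depth is unknown, so how far it limits low-level genes cannot be given.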

Other observations

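Chromosomes differed in their share of calls, given here as values without a test. Chromosome IV had 39 lower genes of 2393 tested (1.63%) and chromosome III 12 of 2204 (0.544%), against 1.1% of all tested genes. The 39 include called major sperm protein genes, among them msp-36, msp-57 and msp-76. Higher calls made up 0.612% on chromosome V (24 of 3922) and 0.0454% on chromosome III (1 of 2204), against 0.335% of all tested genes. Most calls were protein-coding genes, 174 lower and 52 higher, as were 14515 of the 16396 tested genes. These calls were 1.2% and 0.358% of the protein-coding genes tested. Among ncRNA genes 1056 were tested, with a median fold of -0.74. In each direction 2 were called (0.189%, against 1.1% lower and 0.335% higher of all tested genes). Levels of the ncRNA genes as a group are not given here. Their folds spread widely both ways, with 44.7% at least 2-fold lower and 22.1% at least 2-fold higher. For protein-coding genes those shares were 8.07% and 1.15%. Genes at 0 in 1 genotype count in these shares and in the ncRNA median. The long noncoding RNA tts-1 was at 420.1 FPKM in fog-2 and 741 FPKM in N2, and tts-2 was at 4.66 FPKM in fog-2 and 18.7 FPKM in N2. The tts-1 locus is shared with other gene models and spans over 100 kb. Its q was 0.0465 with oligo-dT and 0.686 with hexamers in the authors' deposited tables. Without shared loci, or without loci over 100 kb, the tts-1 call is lost.

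Related genes did not always share a direction. The flavin monooxygenase gene fmo-2 was lower, at 1.35 FPKM in fog-2 and 5.10 FPKM in N2, and fmo-1 was higher, at 15.6 FPKM in fog-2 and 9.20 FPKM in N2. The transporter gene hmit-1.1 was at 4.73 FPKM in fog-2 and 16.2 FPKM in N2, while hmit-1.2, 1197 bases away, was at 3.96 FPKM in fog-2 and 3.56 FPKM in N2 and was not called. Both ceramidase genes were lower, asah-1 at 34.3 FPKM in fog-2 and 76.5 FPKM in N2, and asah-2 at 48.5 FPKM in fog-2 and 71.8 FPKM in N2. These families and the tts RNAs were chosen after their values were seen.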
